A study of Mus musculus with 6 samples.

Results

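The genes that build triglyceride and supply its glycerol backbone were examined in inguinal adipose tissue (iAT), the subcutaneous fat of the groin, of mice at postnatal day 6. The 10 genes were chosen by name, as acyltransferases, a lipin and enzymes or channels of glycerol supply, by a rule that uses no measured value, although earlier results of these data were known. They are *Gpam*, *Gpat3*, *Agpat2*, *Lpin1*, *Dgat1*, *Dgat2*, *Pck1*, *Gpd1*, *Gyk* and *Aqp7*, and all 10 were found among the 19831 genes of the table. For 8 of them the symbol was the same, while *Gpat3* is listed as *Agpat9* (Entrez 231510) and *Gyk* as *Gk* (Entrez 14933). RNA sequencing covered 3 samples of wild-type mice and 3 of mice without *Npffr1* (Npffr1-KO), which encodes a receptor for neuropeptide FF. Both genotypes were kept under specific pathogen free conditions and were sampled at the same age. Strain, sex, the design of the deleted allele and the cells in which it is deleted are not in the labels, which also do not state whether the 3 samples of a genotype are separate animals.

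Triglyceride is assembled on glycerol-3-phosphate. Glycerol-3-phosphate acyltransferases add a fatty acid to give lysophosphatidate, lysophosphatidate acyltransferases add the next, lipins remove the phosphate to give diacylglycerol, and diacylglycerol acyltransferases add the last fatty acid. Adipocytes obtain glycerol-3-phosphate from glucose or, by glyceroneogenesis, from pyruvate. PEP carboxykinase acts in glyceroneogenesis, and glycerol-3-phosphate dehydrogenase completes both routes. Free glycerol is converted by glycerol kinase, an enzyme known for its low level in white fat and its higher level in thermogenic fat. Aquaglyceroporins are the channels through which glycerol crosses the cell membrane.

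The table gives 1 value per gene and genotype, in counts normalized for library size, so most of the values below carry no error and no test. Values summed over all genes to 23137343 normalized counts in wild-type iAT and 23640005 in Npffr1-KO, and the 6 library size factors lay between 0.916 and 1.04. A log2 ratio is the log2 of the Npffr1-KO value over the wild-type value, and a gene was called higher or lower when that ratio was at least 0.5 in size, a 1.41-fold difference. The ratio of the 2 values is drawn towards 0, more strongly for genes with few reads. The targeted gene was at the limit of detection, with 1, 0 and 5 *Npffr1* reads in the wild-type libraries and 0 reads in each Npffr1-KO library. All 10 adipocyte markers were present, with means of 4480 to 165000 normalized counts. The sum of the adipocyte markers was 518660 normalized counts in wild-type iAT and 534579 in Npffr1-KO. In whole tissue, fewer cells of a type and less RNA per cell cannot be told apart.

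Among the 10 genes, *Agpat2*, *Dgat2* and *Gyk* were higher in Npffr1-KO, the diacylglycerol acyltransferases lay further towards *Dgat2*, and *Pck1* and *Aqp7* had the lowest ratios. Past the fold of 0.5, 3 of 10 genes were higher, and 4.37% of the 15309 genes averaging at least 10 normalized counts were. None of the 10 was lower past that fold, against 4.78% of all genes. Of the 10 log2 ratios 5 were above 0 and 5 below, and they ranged from -0.40 to 0.58. Their median was -0.03, beside 0.01 over all genes with a mean of at least 10. Summed over the 10 genes, the values were 87396 normalized counts in wild-type iAT and 91541 in Npffr1-KO, which is 0.378% and 0.387% of all counts.

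**Figure D1:**
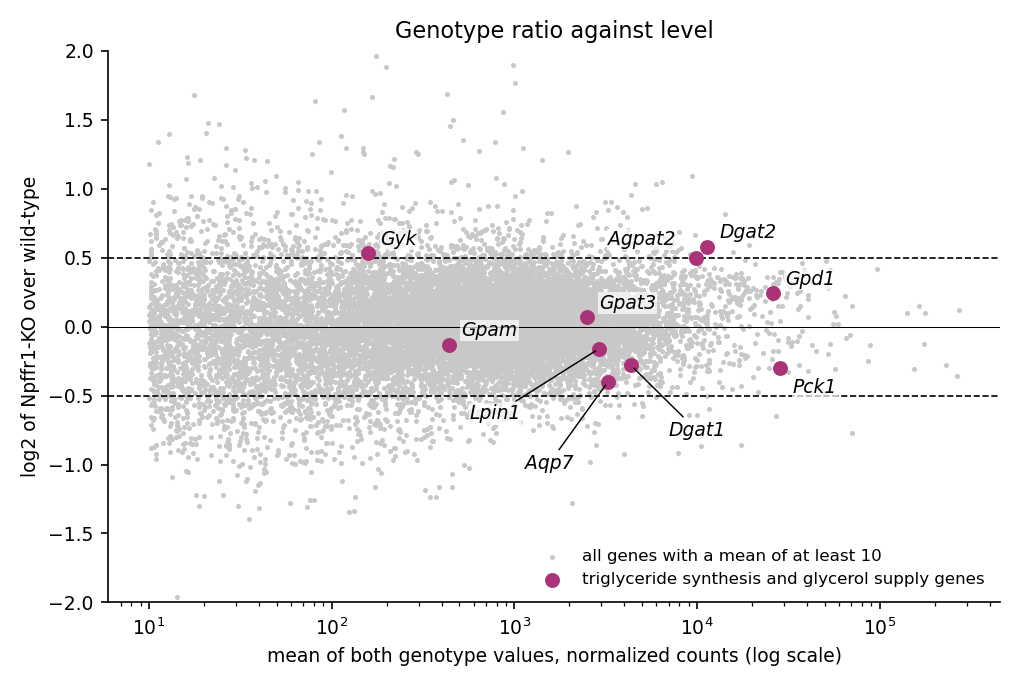
Log2 of the Npffr1-KO over the wild-type value (vertical axis) against the mean of both values in normalized counts (horizontal axis, log scale), with all genes of a mean of at least 10 in grey and the 10 triglyceride synthesis and glycerol supply genes in colour. Dashed lines mark 0.5 in either direction: *Dgat2* at 0.58, *Gyk* at 0.53 and *Agpat2* at 0.50 reach the upper line, and none of the 10 reaches the lower.

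Levels differed much more between the genes than between the genotypes. Divided by gene length, the wild-type value of *Pck1*, the cytosolic PEP carboxykinase, was the highest, at 12108 normalized counts per kilobase. *Gpd1*, the cytosolic glycerol-3-phosphate dehydrogenase, had 8484 per kilobase in wild-type. *Agpat2*, *Dgat2*, *Dgat1*, *Aqp7*, *Gpat3*, *Lpin1* and *Gpam* followed in that order, and *Gyk*, the glycerol kinase, was the lowest with 29.6 per kilobase. The span from *Gyk* to *Pck1* was 410-fold in wild-type. In Npffr1-KO the order was the same except that *Gpd1*, with 9989 per kilobase, stood above *Pck1* with 9803. Without values per sample, none of these neighbours in the order can be said to differ beyond the spread between samples.

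**Figure D2:**
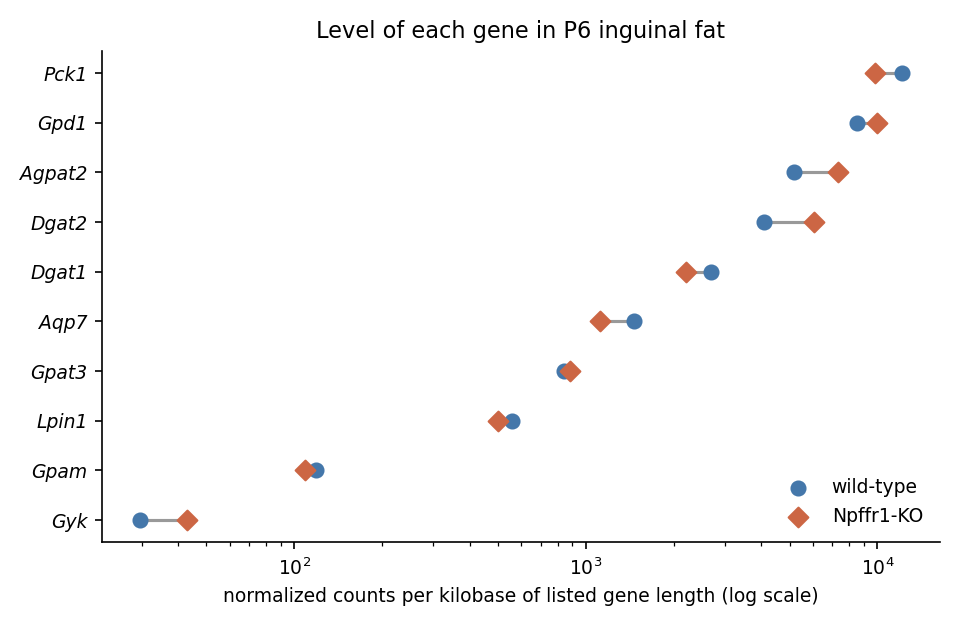
Level of each of the 10 genes in normalized counts per kilobase of gene length (horizontal axis, log scale), with circles for wild-type and diamonds for Npffr1-KO, in the order of the wild-type level and with 1 value per genotype. The genes run from 29.6 for *Gyk* to 12108 for *Pck1*, and *Gpd1* passes *Pck1* in Npffr1-KO only.

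Promoters of 7 of the 10 genes were found in the RefSeq set for the mouse genome build GRCm38.p6, as 300 bases that run from 250 before to 50 after the annotated start. None was found for *Dgat1*, *Gpd1* and *Dgat2*, the last of which was also higher past the fold. The promoters of *Agpat2* and *Gyk* are shown because these genes were higher past the fold. That of *Pck1* is shown because it was the most abundant of the group per length. The *Agpat2* window is chr2:26604368-26604667 on the minus strand, the *Pck1* window chr2:173152823-173153122 on the plus strand and the *Gyk* window chrX:85776770-85777069 on the minus strand. Each is written 5′ to 3′, with capitals for motifs found on either strand.
*Agpat2*: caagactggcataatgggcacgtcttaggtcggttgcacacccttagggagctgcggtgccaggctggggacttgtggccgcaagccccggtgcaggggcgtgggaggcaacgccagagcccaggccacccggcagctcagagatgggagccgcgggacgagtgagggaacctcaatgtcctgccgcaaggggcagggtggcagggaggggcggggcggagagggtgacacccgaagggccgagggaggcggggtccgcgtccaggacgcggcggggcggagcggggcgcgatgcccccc
*Pck1*: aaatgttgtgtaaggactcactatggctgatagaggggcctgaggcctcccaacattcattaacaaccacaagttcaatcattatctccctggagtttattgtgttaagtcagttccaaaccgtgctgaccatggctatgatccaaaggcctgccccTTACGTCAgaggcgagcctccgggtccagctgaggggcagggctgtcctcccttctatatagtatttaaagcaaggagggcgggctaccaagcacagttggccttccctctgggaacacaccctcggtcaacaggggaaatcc
*Gyk*: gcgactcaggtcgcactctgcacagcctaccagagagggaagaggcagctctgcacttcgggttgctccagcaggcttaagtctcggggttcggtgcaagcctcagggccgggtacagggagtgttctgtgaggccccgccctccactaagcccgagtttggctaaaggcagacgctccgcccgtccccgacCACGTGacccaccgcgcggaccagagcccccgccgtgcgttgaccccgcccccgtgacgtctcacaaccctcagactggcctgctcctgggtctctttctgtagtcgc
The capitals in *Pck1* mark TTACGTCA, a variant of the cAMP response element, which starts 93 bases before the start site. This variant is present in 0.499% of the 32851 promoters of the set, and the palindromic cAMP response element TGACGTCA in 1.79%. The capitals in *Gyk* mark the E-box CACGTG, 58 bases before the start site, which 7.15% of all promoters hold. The *Agpat2* window holds none of the motifs searched and has a GC content of 72.0%, against a median of 52.7% over all promoters. The other motifs searched were the sterol regulatory element TCACNCCAC (1.24% of all promoters), the nuclear receptor hexamer AGGTCA (16.3%), that site repeated with 1 base between the copies (0.0396%), the TATA box as TATAAA (13.6%) and the CCAAT box as CCAAT (37.4%). Of the 9 windows of the 7 genes, 4 held the hexamer, namely both of *Aqp7* and 1 each of *Lpin1* and *Gpam*, and 1 window of *Gpam* held CCAAT. None held the sterol regulatory element, the repeated hexamer or the TATA box in these letters.

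At the entry step, the summed level of the glycerol-3-phosphate acyltransferases was nearly the same in both genotypes, with 1640 normalized counts per kilobase for wild-type and 1629 for Npffr1-KO. *Gpat3*, the endoplasmic reticulum enzyme that predominates in adipocytes, had 2429 normalized counts in wild-type iAT and 2544 in Npffr1-KO, a log2 ratio of 0.07. *Gpam*, the enzyme of the outer mitochondrial membrane, had 460 and 420, a log2 ratio of -0.13. *Gpat3* made up 51.5% of the step per kilobase in wild-type and 54.3% in Npffr1-KO. *Gpat4* held 41.2% and 39.0%, and *Gpam* 7.28% and 6.69%. Both members at this step thus stayed within the fold of 0.5. Of the 31-base stretches of the *Gpat3* transcripts, 5.02% also occur in 1 other annotated gene, so its value can depend on how shared reads were counted.

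At the next step *Agpat2*, the lysophosphatidate acyltransferase whose loss causes lipodystrophy, had 8140 normalized counts in wild-type iAT and 11512 in Npffr1-KO, a log2 ratio of 0.50. The ratio lies directly at the fold, at 0.5001 to 4 decimals, and is 0.49 when centred on the median gene and 0.38 when centred on genes of like length. A log2 ratio above that of *Agpat2* was found for 4.36% of all genes. *Agpat2* accounted for 62.9% of the step per kilobase in wild-type and 68.2% for Npffr1-KO. Its closest relative *Agpat1* had 2976 and 3526 normalized counts, a log2 ratio of 0.24, and the quotient of *Agpat2* over *Agpat1* per kilobase was 3.47 in wild-type and 4.14 in Npffr1-KO. *Agpat3*, *Agpat4* and *Agpat5* had log2 ratios of 0.10, -0.09 and 0.08. Of the related acyltransferases with a mean of at least 100, *Lclat1* was at -0.06 and *Tmem68* at 0.01.

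At the phosphatase step *Lpin1*, which also acts as a transcriptional coactivator, had 3079 normalized counts in wild-type iAT and 2750 in Npffr1-KO. Its log2 ratio of -0.16 became -0.05 when centred on genes of like length, as *Lpin1* has the longest listed length of the 10 genes with 5519 bases. *Lpin2* was at -0.21 and *Lpin3* at 0.00 on the log2 scale. The share of *Lpin1* in the level of the lipins per kilobase was 82.4% in wild-type and 82.0% in Npffr1-KO, so the composition of the step was alike in both genotypes.

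The share of a gene within its step differed most between the genotypes for the diacylglycerol acyltransferases, whose log2 ratios had opposite signs. *Dgat2* had 9164 normalized counts in wild-type iAT and 13679 in Npffr1-KO, a log2 ratio of 0.58 and the highest of the 10 genes. *Dgat1* had 4775 and 3921, a log2 ratio of -0.28. Both enzymes catalyse the same reaction with unrelated proteins, and *Dgat2* is the one mainly linked to newly made fatty acids. *Dgat2* made up 60.2% of the step per kilobase in wild-type and 73.4% in Npffr1-KO, and *Dgat1* 39.8% and 26.6%. The quotient of *Dgat2* over *Dgat1* was 1.51 in wild-type and 2.75 in Npffr1-KO. On the log2 scale it differed by 0.86, and by 0.89 after centring on genes of like length. The summed level of the step was 6760 normalized counts per kilobase in wild-type and 8284 in Npffr1-KO. Monoacylglycerol acyltransferases, which make diacylglycerol by another route, were low, and *Mogat1* had 54.1, 42.1 and 34.7 normalized reads in the libraries of wild-type and 42.4, 50.5 and 42.6 in those of Npffr1-KO, where the groups overlap.

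**Figure D3:**
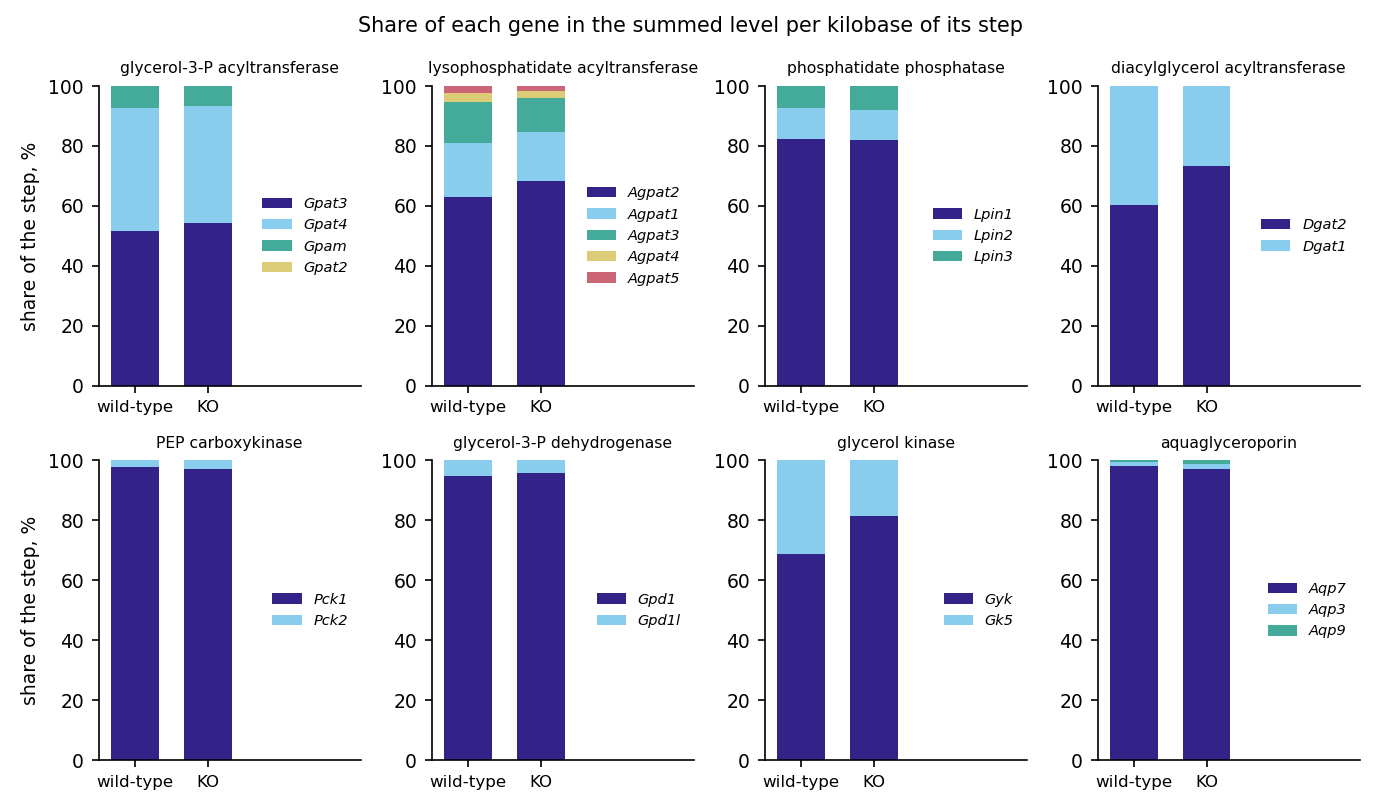
Share of each gene in the summed level per kilobase of its step, in percent (vertical axis), for wild-type and Npffr1-KO (KO), with 1 value per genotype and 8 steps of triglyceride synthesis and glycerol supply. *Dgat2* takes 60.2% in wild-type and 73.4% in Npffr1-KO and *Gyk* 68.9% and 81.5%, while *Lpin1*, *Pck1*, *Gpd1* and *Aqp7* differ by less than 1 percentage point.

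The log2 ratios of *Pck1* and *Gpd1* differed in sign, and both stayed within the fold. *Pck1*, the enzyme of glyceroneogenesis and the most abundant gene of the group, had 31686 normalized counts in wild-type iAT and 25654 in Npffr1-KO, a log2 ratio of -0.30. *Gpd1*, which acts in both glycolytic supply and glyceroneogenesis, had 23830 and 28060, a log2 ratio of 0.24. Of all genes with a mean of at least 10, 19.5% had a higher ratio than *Gpd1* and 12.7% a lower one than *Pck1*. How much each route supplies was not tested. *Gpd1* over *Pck1* per kilobase was 0.701 in wild-type and 1.02 in Npffr1-KO, a difference of 0.54 on the log2 scale. Both genes dominated their step in each genotype: *Pck1* held 97.6% and 97.2% of PEP carboxykinase, the rest being the mitochondrial *Pck2*, and *Gpd1* held 94.9% and 95.6% beside *Gpd1l*. *Pck2* had a log2 ratio of -0.10 and *Gpd1l* of 0.01. *Gpd2*, the mitochondrial enzyme that oxidizes glycerol-3-phosphate, had 608 and 761 normalized counts, a log2 ratio of 0.32. Triose phosphate isomerase, *Tpi1*, was at 0.39, the glycerol-3-phosphate phosphatase *Pgp* at 0.43, the pyruvate carboxylase *Pcx* at -0.04 and the glucose transporter *Slc2a4* at 0.13.

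*Aqp7*, the main glycerol channel of adipocytes, had 3704 normalized counts in wild-type iAT and 2815 in Npffr1-KO. Its log2 ratio of -0.40 was the lowest of the 10 genes and stayed within the fold. Of all genes, 13.7% had a ratio of at least 0.3 and 12.9% of at most -0.3, and *Aqp7* and *Pck1* belong to the latter. *Aqp7* made up 98.0% of the aquaglyceroporins per kilobase in wild-type and 97.0% for Npffr1-KO. The water channel *Aqp1*, an endothelial gene in fat, had 10783 and 8321 normalized counts, a log2 ratio of -0.37. The 6 endothelial markers had a median log2 ratio of -0.32, with 5 of 6 below 0, and their sum was 59803 normalized counts in wild-type iAT and 47916 in Npffr1-KO. *Aqp7* is also known from endothelial cells, and the part of these cells in its value was not tested. Of the 31-base stretches of the *Aqp7* transcripts 6.20% occur in other genes as well.

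*Gyk*, the enzyme that returns free glycerol to glycerol-3-phosphate, had the lowest counts of the members and was the only one whose 6 libraries were recovered. It had 129 normalized counts in wild-type iAT and 188 in Npffr1-KO, a log2 ratio of 0.53. The mean of the 2 values is the mean over 6 libraries, and whole reads were searched that give this mean to its printed precision. With each library kept between 0.4 and 2.5 times the mean, 2 combinations fitted, and 1 of them had the direction and size of the deposited ratio. In wild-type it gave 127, 134 and 122 normalized reads in libraries A, B and C. In Npffr1-KO it gave 226, 132 and 209 in libraries A, B and C, letters that name libraries within a genotype and are not sample numbers. Libraries A and C of Npffr1-KO were thus above all wild-type libraries, while library B lay among them, so the groups overlapped. The means were 128 ± 6.09 (SD, n = 3) in wild-type and 189 ± 50.2 (SD, n = 3) in Npffr1-KO, a log2 ratio of 0.57, with p = 0.20 in a two-sided exact permutation test whose smallest possible p is 0.10. Because the deposited ratio was used to choose the combination, this p is conditional on that choice and is no independent evidence on the difference. For the nearest member by level, *Gpam*, 26 combinations fitted even with each library between 0.7 and 1.4 times its mean. They were not narrowed by the deposited ratio, and the remaining members were not searched.

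The recovered values rest on the condition that the true reads lie within that window. The same search was run on the 37 other genes with a mean within 5% of that of *Gyk* and a log2 ratio of 0.4 to 0.7 in size. For 35 of them at least 1 combination had a log2 ratio of which the deposited one was 0.85 to 1 times the size, and for 33 exactly 1 had. This shows how often a fitting combination was found, not that it was the true one.

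*Gk5*, a relative of glycerol kinase and chosen after its values were seen, went the other way. It had 39.6, 36.2 and 36.7 normalized reads in the libraries of wild-type and 21.2, 33.3 and 22.9 in those of Npffr1-KO. All Npffr1-KO libraries were lower than all wild-type libraries, a pattern that 9.75% of the 2061 genes averaging 10 to 50 share. The log2 ratio of the means was -0.54, with p = 0.10 in the exact permutation test, the smallest it can give. *Gyk* over *Gk5* per kilobase was 2.21 in wild-type and 4.41 in Npffr1-KO, from the deposited values. Of the minor channels, *Aqp9* had 32.8, 19.6 and 27.8 normalized reads in wild-type and 54.0, 25.2 and 24.0 in Npffr1-KO, and *Aqp3* 36.7, 40.1 and 26.8 against 43.4, 36.3 and 37.1. Both overlapped between the genotypes, so the genotypes were not separated in either gene.

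**Figure D4:**
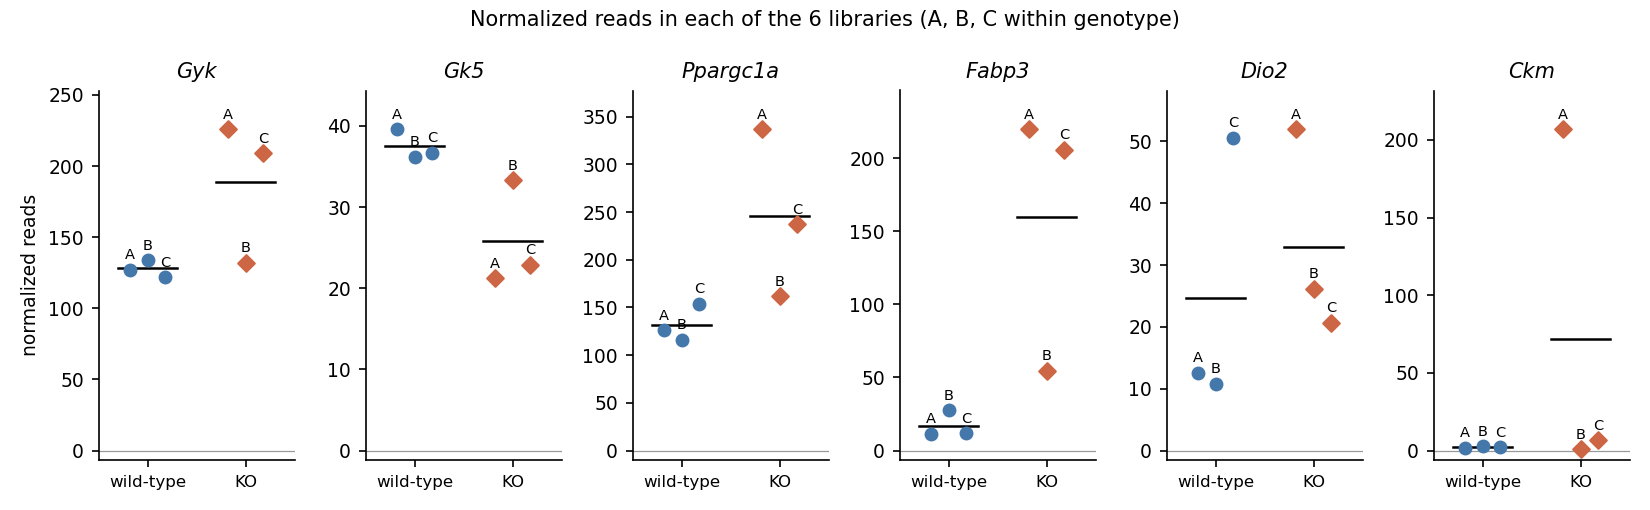
Normalized reads (vertical axis, from 0) in the 3 wild-type (circles) and 3 Npffr1-KO (diamonds, KO) libraries for *Gyk*, *Gk5*, the coactivator *Ppargc1a*, the fatty acid binding protein *Fabp3*, the deiodinase *Dio2* and the muscle creatine kinase *Ckm*, with lines for the means. *Gyk*, *Ppargc1a* and *Fabp3* show the combination chosen by the deposited ratio: Npffr1-KO library B is the lowest of its genotype in these, C is the lowest in *Dio2* (20.7), and *Ckm* is high in A only (207).

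Genes of thermogenic adipocytes differed in which Npffr1-KO libraries were high. *Fabp3* had 220, 54.5 and 206 normalized reads in Npffr1-KO libraries A, B and C, and 11.6, 27.4 and 11.9 in wild-type. *Ppargc1a*, a coactivator of thermogenic and mitochondrial genes, had 337, 162 and 237, and 126, 116 and 154. In these combinations library B was the lowest of the Npffr1-KO libraries, as in *Gyk*. *Dio2*, the deiodinase that activates thyroid hormone in brown fat, had a sole combination, with 52.0, 26.2 and 20.7 normalized reads in Npffr1-KO libraries A, B and C and 12.6, 10.8 and 50.6 in wild-type. There library C was the lowest of Npffr1-KO, and the genotypes overlapped. The reads of *Ppargc1a* were chosen from 13 combinations by the rule used for *Gyk*. Those of *Fabp3* were chosen from 5, searched without a window, by a looser rule. It required only the deposited sign and a library log2 ratio at least as large, here 3.24 beside a deposited 2.51. The separation of both genes between the genotypes is therefore no independent evidence. Other combinations of the deposited sign order the Npffr1-KO libraries differently, and 37.3% of the 31-base stretches of *Fabp3* occur in other genes. Of 10 thermogenic markers with a mean of at least 10, 9 were higher past the fold, with a median log2 ratio of 1.62 and a sum of 2646 normalized counts in wild-type iAT and 7785 in Npffr1-KO. Past that fold, 4.37% of all genes with a mean of at least 10 were higher. Among the defining thermogenic markers *Ucp1* had 438 and 1287 normalized counts, while *Elovl3* was near 0 in both genotypes. Library A of Npffr1-KO also carried skeletal muscle transcripts: *Ckm* had 207 normalized reads there, 1.01 and 6.55 in libraries B and C, and 1.93 to 2.94 in wild-type. Of 7 muscle markers 4 were higher past the fold, with a sum of 553 normalized counts in wild-type iAT and 977 in Npffr1-KO. These are sums of deposited values, whose ratio is drawn towards 0. The deposited values of *Ckm* were 27.5 and 46.4, while its library means were 2.28 in wild-type and 71.6 in Npffr1-KO. Without library A the log2 ratio of *Gyk* was 0.42, and without library B it was 0.77. The part of thermogenic cells and of muscle in the *Gyk* value was not tested.

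None of 10 paralogs of the synthesis enzymes with a mean of at least 10 passed the fold in either direction, and their log2 ratios lay between -0.21 and 0.24 with a median of 0.00. By the deposited values none of 12 paralogs and partners of glycerol supply passed it either, with a median of 0.14 and a range from -0.46 to 0.43. The lowest was *Gk5*, whose library means gave -0.54, past the fold. *Agpat2*, *Dgat2* and *Gyk* therefore had higher log2 ratios than every paralog and partner listed, although the difference was not tested. For *Agpat2* this order depended on gene length: centred on genes of like length it was at 0.38, below the partner *Gpd2* at 0.43. The 7 acyl-CoA synthetases and carriers, which activate fatty acids for these steps, had a median of 0.17, and the most abundant, *Acsl1*, had 44591 normalized counts in wild-type iAT and 40699 in Npffr1-KO. In the branch that leads to phospholipids, 1 of 21 genes was higher past the fold and 0 were lower. For these counts and those of the paralogs and partners, the shares over all genes were 4.37% higher and 4.78% lower. The higher gene was *Cds1*, which turns phosphatidate into CDP-diacylglycerol. *Cds1* had 126, 138 and 144 normalized reads in the libraries of wild-type and 202, 163 and 262 in those of Npffr1-KO in the sole 1 of 8 combinations with the direction and size of the deposited ratio, a choice by which no test of the difference is possible.

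Of 18 regulators of the pathway, 5 were higher and 1 was lower past the fold, with a median of 0.13. Over all genes with a mean of at least 10, 4.37% were higher and 4.78% lower past it. *Insig1*, which retains the sterol sensor in the endoplasmic reticulum and is a target of SREBP, had 2828 normalized counts in wild-type iAT and 5029 in Npffr1-KO, a log2 ratio of 0.83. *Ppargc1a* was at 0.83, the nuclear receptor *Nr4a1* at 0.74, the nuclear receptor *Esrra* at 0.56 and the transcription factor *Cebpb* at 0.52. *Irs1*, an adaptor of the insulin receptor, was at -0.52. Centred on genes of like length, *Irs1* was at -0.37 and *Cebpb* at 0.41, and 4 regulators were higher and 0 lower past the fold. *Pparg*, the nuclear receptor of adipocyte formation, was at 0.40. Among the 9 genes of triglyceride breakdown, 2 were higher past the fold: *G0s2*, an inhibitor of adipose triglyceride lipase, at 1.03, and the lipase *Ces1d* at 0.55. Centred on genes of like length, *G0s2* was at 0.83 and *Ces1d* at 0.48. *Pnpla2*, the adipose triglyceride lipase itself, had 34348 normalized counts in wild-type iAT and 31768 in Npffr1-KO. *Pnpla2* over *Dgat2* per kilobase was 3.20 in wild-type and 1.98 in Npffr1-KO.

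**Figure D5:**
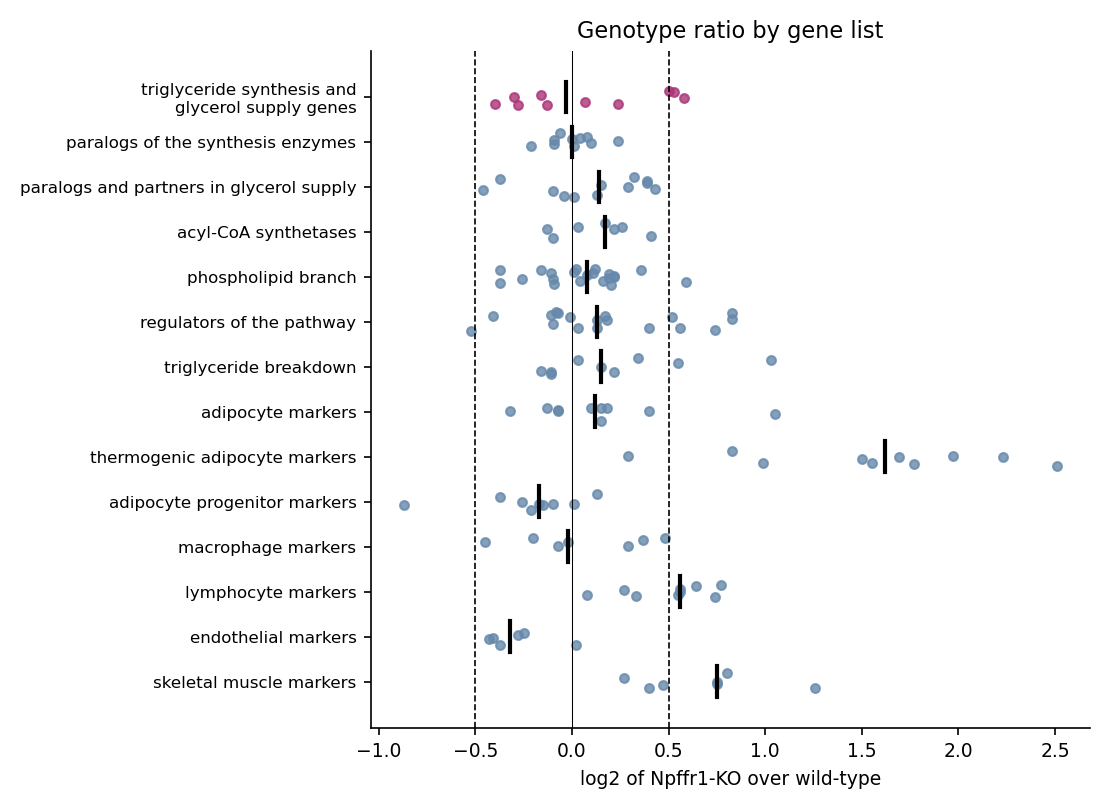
Log2 of the Npffr1-KO over the wild-type value (horizontal axis) for the 10 triglyceride synthesis and glycerol supply genes (top) and for other gene lists, with a point per gene of a mean of at least 10, bars for the medians and dashed lines at 0.5 in either direction. The 10 genes spread from -0.40 to 0.58 around -0.03, their paralogs stay between -0.21 and 0.24, and the thermogenic markers have a median of 1.62.

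Other cell types were present in both genotypes. The 9 lymphocyte markers had a median log2 ratio of 0.56, with a sum of 16453 normalized counts in wild-type iAT and 22791 in Npffr1-KO. The 9 adipocyte progenitor markers had a median of -0.17, with 7 below 0 and 2 above, and sums of 52377 and 41534. *Dlk1* was the only one of these past the fold, at -0.87. It alone had 13526 normalized counts in wild-type iAT and 7412 in Npffr1-KO, so these sums depend strongly on it. The 7 macrophage markers had a median of -0.02. Among adipocyte markers *Lep* passed the fold at 1.05, while *Adipoq* was at -0.07. The part of these cell types in the values of the 10 genes was not tested. Shorter genes had higher ratios across all genes, with a Spearman rho of -0.384 between length and log2 ratio, which is a description over genes and no test. After centring on genes of like length, *Dgat2* was at 0.52, *Gyk* at 0.60, *Gpd1* at 0.23, *Dgat1* at -0.37, *Pck1* at -0.33 and *Aqp7* at -0.43.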

How the data were processed

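Total RNA of iAT was extracted with TRIzol and sequenced. Per the labels, the authors' processing notes name Bowtie2, RSEM and DESeq2, with no versions. Genome build and annotation: not given in the sources used here. The deposited signal is a read count normalized for library size by the authors, given as 1 value per gene and genotype with the gene length in bases. The authors' own log2 fold changes, p-values and adjusted p-values were not used, nor was their shorter table of selected genes.

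Log2 ratios were computed without a pseudocount, and levels were compared per kilobase. All genes with a mean of at least 10 served as background. With 1 value per genotype no test across genes was possible, and a call means a log2 ratio of at least 0.5 in size. The 2 values of a gene are no library means: their mean is that of 6 libraries and their ratio is drawn towards 0. In 513 genes with a mean of 25 to 50 and a library log2 ratio of at least 0.3 in size, the deposited log2 ratio was a median of 0.832 times that of the libraries.

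Genes with 1 read (585) fall on 6 values, 3 per genotype, which give the size factors. Whole reads were then searched for 6601 genes averaging up to 50, of which 6576 (99.6%) had exactly 1 combination, and, within a window around the mean, for *Gyk*, *Ppargc1a* and *Cds1*. The latter needed a deposited log2 ratio of 0.85 to 1 times that of the libraries. For *Fabp3* all combinations were searched without a window. Only the deposited sign and a library log2 ratio at least as large were required there. The search and the centring in 20 classes of length were tested on simulated data. For the window search, that test required only the deposited direction and a library ratio at least as large. It did not apply the range of 0.85 to 1, so it does not cover the choice made for *Gyk*, *Ppargc1a* and *Cds1*. Shared 31-base stretches came from the GENCODE M21 transcripts, which may differ from the authors' annotation. Precision is limited by 3 libraries per genotype and, for recovered reads, by counting error.

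The members and lists were chosen with earlier results of these data known, and the steps and the genes searched within a window were chosen after values were seen. Of the other lists, paralogs with a mean of at least 100, up to 5 genes past the fold and otherwise the most abundant gene were to be named. *Cebpb*, *Gk5*, *Mogat1*, *Aqp3*, *Aqp9*, *Fabp3*, *Dio2*, *Ckm*, *Ucp1*, *Elovl3*, *Adipoq*, *Pparg*, *Pnpla2* and the partners of glycerol supply were named beyond that rule. Figures were drawn with matplotlib 3.10.9, and computations used Python 3.11.15, scipy 1.17.1 and numba 0.67.0.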

Additional observations from a re-analysis of the deposited data

How the results depend on the processing

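All 10 genes kept the direction of their log2 ratio when centred on genes of like length or of like mean. They also did so when centred on all genes and with a pseudocount of 10, where the outcome was fixed in advance. A pseudocount cannot reverse a direction, and the median of all genes, 0.01, is smaller than every member's ratio in size. The count of genes higher in Npffr1-KO was 2 in place of 3 under each centring and with the pseudocount, since *Agpat2* lies at the fold. It was 0 at a log2 ratio of at least 1. The count of lower genes was 2, *Aqp7* and *Pck1*, at a log2 ratio of at least 0.3. The median log2 ratio was -0.04 when centred on all genes, 0.00 on genes of like length and -0.05 on genes of like mean, and the mean was 0.06, so its sign depends on these choices. Without division by length 6 of 10 genes kept their rank, and with the Npffr1-KO value 8 did. Among genes with a mean of at least 100, 3.30% were higher and 2.76% lower past the fold. Leaving out each library in turn gave log2 ratios of 0.42 to 0.77 for *Gyk*, with exact permutation p from 0.10 to 0.30, all within the combination chosen by the deposited ratio.

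No paired analysis was possible because recovered libraries could not be tied to the sample numbers. Leaving out a replicate could not be run for the other 9 genes, whose reads per library were not recovered, and for the counts and the median.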
